A study of Mus musculus with 75 samples.

Results

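The 35 genes described here belong to the unfolded protein response and to the ATF4 branch of the integrated stress response, and were chosen by name from the 45706 gene entries of the count tables. All 35 were found by symbol and all 35 passed the filter on low counts. They were followed by polyadenylated RNA sequencing in mouse embryonic fibroblasts (MEFs, C57BL/6) that are p53-/- crel-/- rela-/- and so lack p53, c-Rel and RelA. RelA is the NF-kB protein whose C-terminal end carries TA1 and TA2, domains that activate transcription. Every line carried a pBABE-puro retrovirus. The constructs with 2 libraries at each time were the empty vector (EV, no RelA), RelA-dTAD (without the transactivation domains), RelA-dTA1 (without TA1) and wild-type RelA (RelA-WT). Constructs with 1 library at each time were RelA-DB, RelA-dCterm, RelA-TA2_CI-dTA1, RelA-TA2_CI_S467A-dTA1, RelA-TA2_CI, RelA-TA2_CI_S467A and RelA-TA2_S467A. After a night in 0.5% serum tumor necrosis factor (TNF) was added at 10 ng/ml, and RNA was collected at 0, 0.5, 1, 3 and 8 h. All groups share the 3 deletions, so the controls are knockout cells with RelA put back by a virus and not unmodified fibroblasts. Cells left without TNF were sampled only at 0 h, so change with TNF and change with time alone cannot be told apart.

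Secretory and membrane proteins fold in the endoplasmic reticulum (ER) with the help of chaperones such as BiP, the product of Hspa5. When unfolded proteins accumulate there, the sensors IRE1 (Ern1), PERK (Eif2ak3) and ATF6 are released from BiP. IRE1 splices the Xbp1 mRNA, and the resulting factor, together with ATF6, turns on chaperones and the machinery of ER-associated degradation (ERAD), which exports misfolded proteins for destruction. PERK phosphorylates the initiation factor eIF2alpha, which slows translation in general but favours that of ATF4, a factor that drives amino acid synthesis and transport and, under lasting stress, CHOP (Ddit3). Several of these steps act on splicing, cleavage, phosphorylation or translation, which counts of mRNA per gene do not read.

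The chaperone and ATF4 genes are known for distinct promoter elements, and the sequences that follow show elements found before the start site in chosen members. Windows from 250 bases before to 50 after the RefSeq start site (build GRCm38.p6) were available for 31 of the 35 members. Those without one were Manf, Hyou1, Atf6 and Slc7a5. The first 4 sequences hold in capitals the ER stress element, CCAAT and CCACG with 9 bases of any kind between them (in this order or as the reverse complement), which XBP1 and ATF6 are known to bind with NF-Y. They come from Hspa5 (chr2:34772010-34772058, + strand), Dnajc3 (chr14:118937812-118937860, + strand), Calr (chr8:84847060-84847108, - strand) and Hsp90b1 (chr10:86705518-86705671, - strand), each written in the direction of the gene.
Hspa5: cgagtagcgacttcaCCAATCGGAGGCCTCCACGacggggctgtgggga
Dnajc3: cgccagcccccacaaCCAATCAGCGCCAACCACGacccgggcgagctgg
Calr: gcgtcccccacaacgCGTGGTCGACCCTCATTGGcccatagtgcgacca
Hsp90b1: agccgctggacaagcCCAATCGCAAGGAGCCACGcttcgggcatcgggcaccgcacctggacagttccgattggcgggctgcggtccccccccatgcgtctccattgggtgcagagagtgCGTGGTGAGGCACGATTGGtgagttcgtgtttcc
The next comes from Herpud1 (chr8:94386362-94386402, + strand) and holds the shorter element ERSE-II, in which 1 base of any kind stands between ATTGG and CCACG. The last 3 come from Asns (chr6:7693210-7693247, - strand), Slc7a11 (chr3:50443638-50443694, - strand) and Chac1 (chr2:119351034-119351071, + strand) and hold the CARE core TGATGNAA, through which ATF4 with C/EBP partners is known to act, as written or as its reverse complement.
Herpud1: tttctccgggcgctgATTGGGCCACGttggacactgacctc
Asns: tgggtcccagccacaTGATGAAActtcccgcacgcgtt
Slc7a11: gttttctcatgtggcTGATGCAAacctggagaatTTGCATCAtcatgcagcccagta
Chac1: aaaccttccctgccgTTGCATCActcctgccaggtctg

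Both strands were searched, in 27025 genes with a window. The full ER stress element was present in 7 members (Hspa5, Hsp90b1, Calr, Canx, Pdia6, Dnajc3 and Creld2), all chaperone or folding genes. It was present in 37 genes or 0.137% of all genes with a window. ERSE-II was present in Dnajb11 and Herpud1 and in 0.0444% of these genes. Every match to either of these elements contains CCACG, which alone was in 24 members and 35.5% of all genes with a window. The UPRE core TGACGTG was found in Hspa5 and in 2.22% of these genes. TGATGNAA was found in Herpud1, Trib3, Chac1, Asns and Slc7a11 and in 4.51% of these genes. The NF-kB consensus was found in Edem1, an ERAD gene, and in 6.55% of all genes with a window. A match describes the letters in this window and is not evidence of binding.

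Libraries of set 1 held 4422396 to 6915919 counted reads and those of set 2 held 10440202 to 22908738, and each replicated group has 1 library from each set. CPM, counts scaled to library size, were computed from the counts after scaling libraries by the trimmed mean of M values (TMM). Before TNF, Rela stood at 16.7 and 15.6 CPM in EV, 1121 and 1796 in RelA-dTAD, 847 and 1452 CPM in RelA-dTA1, and 1149 and 1474 in RelA-WT. All 9 fibroblast markers had a median above 1 CPM, and their sum ran from 34932 to 55004 CPM. The sums of markers of other cells were 1.62 to 5.90 for macrophages, 2.42 to 13.5 for epithelium, 0.552 to 10.8 for muscle, 30.2 to 59.6 for endothelium (mostly Kdr) and 100.4 to 232 for neural cells (mostly Map2). Their part in the results was not tested. In bulk RNA, fewer cells of a type and less RNA per cell cannot be told apart.

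Resting levels were compared per length, as reads per kilobase of gene length scaled to library size (RPKM), over the 15 libraries at 0 h. The most abundant members were the chaperones Calr (median 410 RPKM), Pdia3 (344), Hsp90b1 (313) and Hspa5 (204), then the factors Atf5 (199.8) and Atf4 (195) and the chaperone Canx (189.6). Calreticulin and calnexin (Calr, Canx) bind sugar chains of folding glycoproteins, Pdia3 is their disulfide isomerase partner and Hsp90b1 encodes GRP94. The lowest medians were those of the sensors Atf6 (7.40) and Ern1 (3.35), of Sdf2l1 (6.39), a cofactor of BiP, and of Slc7a11 (2.59). In each construct with both sets, Atf5 was 1.58 to 1.83 times higher in set 2 than in set 1 at 0 h, and Chac1 was at 0.596 to 0.790 times its set 1 level. Of the 35, none passed an adjusted p of 0.05 in edgeR's quasi-likelihood test (Benjamini-Hochberg over 13665 genes) between EV, RelA-dTAD or RelA-dTA1 and RelA-WT at 0 h, against 0.563%, 0.0293% and 0.00% of all genes. None had an unadjusted p under 0.05 either, DESeq2 called 0, and the log2 differences lay between -0.21 and 0.23.

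In the first hour the member that moved most was Ppp1r15a (chr7:45522916-45526268, - strand), which encodes GADD34, the phosphatase subunit that reverses eIF2alpha phosphorylation. At 0.5 h it had 81.5 and 116 CPM in EV, 81.6 and 107 in RelA-dTAD, 114 and 126 CPM in RelA-dTA1, and 192 and 186 in RelA-WT. At 0 h its 8 libraries had 37.1 to 42.0 CPM, so every library at 0.5 h lay above every one at 0 h. Both RelA-WT libraries at 0.5 h lay above all others. The share of all genes with such a separation of libraries was not computed. The log2 change was 1.36 ± 0.17 in EV (SE, adjusted p = 3.33e-05), 1.26 ± 0.17 in RelA-dTAD (9.44e-05), 1.63 ± 0.17 in RelA-dTA1 (1.43e-06) and 2.21 ± 0.18 in RelA-WT (5.39e-09). It was the only one of the 35 called at 0.5 h in any of these constructs, where 0.402% of all genes were called in EV, 0.439% in RelA-dTAD, 0.629% in RelA-dTA1 and 0.812% in RelA-WT. The shares of all genes called higher were 0.402%, 0.439%, 0.615% and 0.776%, and those called lower 0.00%, 0.00%, 0.0146% and 0.0366%. The difference of this response from RelA-WT was -0.85 ± 0.24 in EV (adjusted p = 0.969), -0.95 ± 0.24 in RelA-dTAD (0.419, and 0.0298 with the replicate number as a block) and -0.58 ± 0.24 in RelA-dTA1 (1.00).

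At 1 h, 1 member was called in EV, 0 in RelA-dTAD, 2 in RelA-dTA1 and 3 in RelA-WT, against 0.827%, 0.549%, 1.62% and 3.24% of all genes. By direction, 0.768%, 0.534%, 1.41% and 2.55% of all genes were higher and 0.0585%, 0.0146%, 0.212% and 0.695% were lower. In RelA-dTAD, 2 members had an unadjusted p under 0.05 and DESeq2 called 0. Xbp1 rose in EV (log2 change 0.33 ± 0.08, adjusted p = 0.0314) and in RelA-dTA1 (0.31 ± 0.08, 0.0311). Its change in RelA-WT was 0.03 ± 0.08. Ppp1r15a was still higher in RelA-dTA1 (0.79 ± 0.17, adjusted p = 0.0117) and in RelA-WT (1.02 ± 0.18, 4.19e-04). In RelA-WT Slc7a11, the cystine transporter, rose (0.90 ± 0.24, 0.0380) and Trib3, a pseudokinase gene induced by ATF4 and CHOP that restrains both, fell (-0.49 ± 0.12, 0.0159). With the replicate block the 6 calls of this time became 11, while the shares of all genes called became 2.18% in EV, 1.9% in RelA-dTAD, 4.68% in RelA-dTA1 and 6.80% in RelA-WT. The 5 added were Hspa5 in EV (0.32, adjusted p = 0.00423), RelA-dTA1 (0.25, 0.0272) and RelA-WT (0.25, 0.0161), Ppp1r15a in EV (0.58, 0.0361) and Xbp1 in RelA-dTAD (0.27, 0.0344). Leaving out single libraries ended the call of Xbp1 in EV (without 1 h replicate 1 or 0 h replicate 2) and those of Xbp1 and Ppp1r15a in RelA-dTA1 (without either 0 h library or 1 h replicate 1). It ended that of Slc7a11 in RelA-WT without any of its 4 libraries and that of Trib3 without either 0 h library or 1 h replicate 2.

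At 3 h, 5 members were higher and 0 lower in EV, where 3.94% of all genes were called (3.02% higher, 0.922% lower). In RelA-dTAD 2 were higher and 1 lower, against 2.91% of all genes (2.28% higher, 0.629% lower). In RelA-dTA1 4 were higher and 1 lower, against 14.4% (9.58% higher, 4.87% lower), and in RelA-WT 3 were higher and 1 lower, against 16.3% (10.5% higher, 5.74% lower). The chaperone gene Hspa5 rose by 0.43 ± 0.10 in EV (adjusted p = 0.0111), 0.44 ± 0.10 in RelA-dTA1 (0.00257) and 0.42 ± 0.10 in RelA-WT (0.00348), with 0.33 ± 0.10 in RelA-dTAD (0.0704, and 0.00107 with the block). Ern1, the IRE1 sensor, was higher in EV (0.47 ± 0.12, 0.0206), RelA-dTA1 (0.36 ± 0.12, 0.0387) and RelA-WT (0.43 ± 0.12, 0.0119). Xbp1 was higher in EV (0.49 ± 0.08, 2.70e-04), RelA-dTAD (0.32 ± 0.08, 0.0173) and RelA-dTA1 (0.26 ± 0.08, 0.0195), and Ppp1r15a in EV (0.68 ± 0.18, 0.0251) and RelA-dTAD (0.73 ± 0.17, 0.0193). Atf6 was called in EV (0.51 ± 0.14, 0.0422), and with the block also in RelA-dTAD (0.32, 0.0113) and RelA-dTA1 (0.23, 0.0358), as was Ppp1r15a in RelA-dTA1 (0.49, 0.0114). Slc7a11 rose in RelA-dTA1 (1.11 ± 0.24, 0.00195) and RelA-WT (1.12 ± 0.24, 0.00189).

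Trib3 was the member that fell at 3 h. It had 90.6 and 80.5 CPM in EV, 76.9 and 63.4 in RelA-dTAD, 59.8 and 57.5 CPM in RelA-dTA1, and 54.8 and 60.6 in RelA-WT, with 95.0 to 106 in the 8 libraries at 0 h. All 8 libraries at 3 h lay below all 8 at 0 h, and both EV libraries had the highest levels at 3 h. The share of all genes with such a separation was not computed. The change was -0.26 ± 0.12 in EV (adjusted p = 0.249), -0.47 ± 0.12 in RelA-dTAD (0.0260), -0.77 ± 0.12 in RelA-dTA1 (4.20e-05) and -0.82 ± 0.12 in RelA-WT (1.77e-05). Without 1 of the 4 libraries involved, 1 to 3 members were called in EV at 3 h (1 without 0 h replicate 2, 2 without replicate 1 of 0 h or 3 h, 3 without 3 h replicate 2) and 0 to 3 in RelA-dTAD (0 without 0 h replicate 1, 0 h replicate 2 or 3 h replicate 2). Likewise 3 to 4 were called in RelA-dTA1 (3 without either 0 h library or 3 h replicate 1) and 2 to 5 in RelA-WT (2 without 3 h replicate 1 or 0 h replicate 2). Of the 3 h calls, those of Xbp1 in EV, of Hspa5, Trib3 and Slc7a11 in RelA-dTA1 and of Trib3 in RelA-WT were kept whichever library was left out, and those of Atf6 in EV (adjusted p up to 0.251) and Xbp1 in RelA-dTA1 (up to 0.142) were lost without any of the 4. The shares of all genes called in the fits without 1 library are not given here. With the block the calls were 5 in RelA-dTAD, where 12.4% of all genes were then called, and 9 in RelA-WT, where 30.9% were. In RelA-WT Herpud1 (-0.24, adjusted p = 0.0181), Ddit3 (-0.22, 0.0400), Sdf2l1, Atf5 and Slc7a5 were then also lower.

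**Figure D1:**
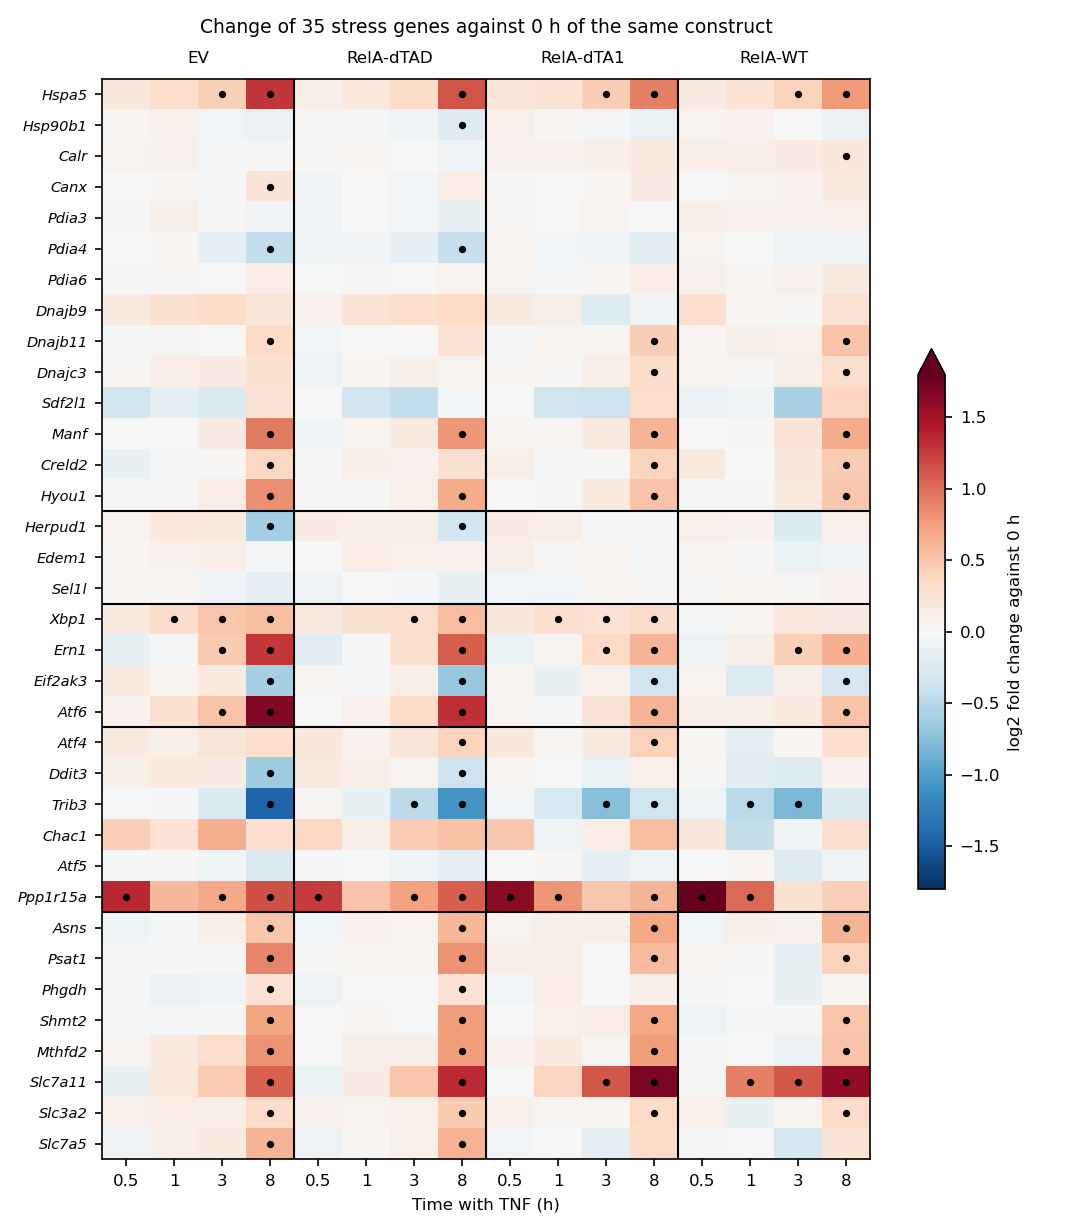
Log2 fold change of the 35 genes (rows, grouped by role with black lines) against 0 h of the same construct, for EV, RelA-dTAD, RelA-dTA1 and RelA-WT at 0.5, 1, 3 and 8 h (columns, 2 libraries a group). Color gives the change, with values above 1.8 drawn at the end of the scale, and a dot marks an adjusted p under 0.05 in edgeR. Ppp1r15a is the only gene with dots at 0.5 h, and most dots fall at 8 h.

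At 8 h, 18 members were higher and 5 lower in EV, 16 and 6 in RelA-dTAD, 17 higher and 2 lower in RelA-dTA1, and 15 and 1 in RelA-WT. Over all genes the called shares were 48.7%, 46.9%, 34.6% and 27.4% in the same order. The higher share of all genes was 25.6% in EV, 24.4% in RelA-dTAD, 19.4% in RelA-dTA1 and 15.8% in RelA-WT, and the lower share was 23.1%, 22.5%, 15.3% and 11.6%. The median change of the 35 was 0.28 in EV, 0.28 in RelA-dTAD, 0.33 in RelA-dTA1 and 0.30 in RelA-WT, while that of all genes was -0.02, -0.02, -0.02 and -0.03. Hspa5, Manf, Hyou1, Ern1, Atf6, Asns, Psat1, Shmt2, Mthfd2, Slc7a11 and Slc3a2 were higher in all 4 constructs, and Eif2ak3 was lower in all 4. The 8 called in none were Pdia3, Pdia6, Dnajb9, Sdf2l1, Edem1, Sel1l, Chac1 and Atf5. The share of all genes with each of these patterns over the 4 constructs was not computed, so the patterns cannot be called particular to the members. The same holds for the separations of libraries between times or constructs given below for single members. All 107 calls against 0 h over the 4 times had the same direction in both sets. The sets hold the same libraries from which the calls were made, so this is not a separate check of the calls. Not all of these calls held when 1 library was left out: 18 of 23 were kept in every such fit in EV, 15 of 22 in RelA-dTAD, 8 of 19 in RelA-dTA1 and 6 of 16 in RelA-WT. Of the 11 genes higher in all 4 constructs, Hspa5, Ern1, Shmt2, Mthfd2, Slc7a11 and Slc3a2 kept all their calls. With the block 28 of the 35 were called in EV, 27 in RelA-dTAD, 24 in RelA-dTA1 and 22 in RelA-WT, against 62.6%, 63.4%, 52.2% and 44.8% of all genes. The 8 h count dropped to 8 in RelA-WT without replicate 1 of 0 h or of 8 h, and to 12 and 11 in RelA-dTA1 without replicate 1 of 0 h and of 8 h. The shares of all genes called in the fits without 1 library are not given here. The labels do not say that replicates are separate cultures, so the p-values cover the spread between the libraries and nothing wider.

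Among the 14 chaperone and folding genes, 6 were higher and 1 lower in EV at 8 h, 3 and 2 in RelA-dTAD, 6 higher and 0 lower in RelA-dTA1, and 7 and 0 in RelA-WT. The called shares of all genes were 48.7%, 46.9%, 34.6% and 27.4% in the same order. With the block the counts of these 14 genes became 8 and 1, 6 and 3, 9 and 1, and 9 and 0, with 62.6%, 63.4%, 52.2% and 44.8% of all genes called under the block. Hspa5 (chr2:34771970-34777547, + strand) had 2190.4 and 1737 CPM in EV, 2023 and 1791 in RelA-dTAD, 1692 and 1497 CPM in RelA-dTA1, and 1559 and 1397 in RelA-WT. Its 8 libraries at 0 h had 789.8 to 905 CPM, and no library at 8 h overlapped them. The fold over 0 h was 2.43 in EV, 2.18 in RelA-dTAD, 1.87 in RelA-dTA1 and 1.71 in RelA-WT, or log2 changes of 1.28 ± 0.10 (adjusted p = 2.62e-10), 1.13 ± 0.10 (2.31e-09), 0.90 ± 0.10 (1.56e-07) and 0.77 ± 0.10 (2.04e-06).

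Manf, which encodes a secreted and ER-resident stress protein, had 135 and 124 CPM in EV, 125 and 123 in RelA-dTAD, 107 and 119.8 CPM in RelA-dTA1, and 118 and 117 in RelA-WT at 8 h, with 66.5 to 79.8 at 0 h. Its changes were 0.94 ± 0.18 in EV (adjusted p = 9.36e-05), 0.78 ± 0.17 in RelA-dTAD (6.45e-04), 0.61 ± 0.17 in RelA-dTA1 (0.00795) and 0.66 ± 0.17 in RelA-WT (0.00584). Hyou1, a nucleotide exchange factor for BiP, had 364 and 332 CPM in EV, 304 and 320.1 in RelA-dTAD, 280.0 and 299.7 CPM in RelA-dTA1, and 262 and 289.6 in RelA-WT, with 175 to 224 at 0 h. It rose by 0.82 ± 0.17 in EV (3.17e-04), 0.66 ± 0.17 in RelA-dTAD (0.00246), 0.52 ± 0.17 in RelA-dTA1 (0.0205) and 0.48 ± 0.17 in RelA-WT (0.0378). For both genes all libraries at 8 h lay above all at 0 h. The call of Manf was lost without 0 h replicate 1 in RelA-WT, and without 0 h replicate 1 or 8 h replicate 2 in RelA-dTA1. That of Hyou1 was lost without RelA-dTAD 0 h replicate 1. For RelA-dTA1 (adjusted p up to 0.201) and RelA-WT (up to 0.244) it was lost without 0 h replicate 1 or either 8 h library of the construct.

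Of the abundant chaperones other than Hspa5, Hsp90b1 changed by -0.23 ± 0.07 in RelA-dTAD (adjusted p = 0.0117), with -0.10 in EV, -0.12 in RelA-dTA1 and -0.10 in RelA-WT, and its promoter holds the ER stress element 2 times. Calr was called in RelA-WT (0.21 ± 0.07, 0.0274), and with the block also in RelA-dTA1 (0.17, 0.0210). Canx was called in EV (0.24 ± 0.07, 0.00938), and with the block also in RelA-dTA1 (0.15, 0.0449) and RelA-WT (0.18, 0.0231). Pdia4, another disulfide isomerase gene, was lower in EV (-0.44 ± 0.11, 0.00264) and RelA-dTAD (-0.42 ± 0.11, 0.00389), against -0.19 ± 0.11 in RelA-dTA1 (0.223, and 0.00657 with the block) and -0.06 ± 0.11 in RelA-WT. Among the BiP cochaperones, Dnajb11 (ERdj3) rose by 0.35 in EV, 0.44 in RelA-dTA1 and 0.51 in RelA-WT, and Dnajc3 (p58IPK) by 0.33 in RelA-dTA1 and 0.32 in RelA-WT, while RelA-dTAD had 0.25 ± 0.13 for Dnajb11 (0.112, and 0.0161 with the block) and 0.06 ± 0.12 for Dnajc3. Dnajc3 changed by 0.27 ± 0.12 in EV (0.0593, and 0.00630 with the block). Creld2, a disulfide isomerase gene, rose by 0.37 in EV, 0.40 in RelA-dTA1 and 0.46 in RelA-WT, with 0.28 ± 0.14 in RelA-dTAD (0.119, and 0.0171 with the block). The block also added Pdia6 in EV and RelA-WT, Pdia3 (lower) and Dnajb9 in RelA-dTAD, and Sdf2l1 in RelA-dTA1. Without 1 library the calls of Hsp90b1, Calr, Canx, Dnajc3, Creld2 and that of Pdia4 in RelA-dTAD were lost in 1 to 3 of 4 fits, and those of Dnajb11 in 1 to 2. The libraries were RelA-dTAD 8 h replicate 2 for Hsp90b1 and 0 h replicate 2 for Pdia4, replicate 1 of EV at 0 h or 8 h for Canx and Dnajb11, and 0 h replicate 1 of RelA-dTA1 or RelA-WT for Dnajb11. They were either RelA-WT 0 h library or 8 h replicate 1 for Calr, and 0 h replicate 1 or either 8 h library of the construct for Dnajc3 and Creld2. Of the 7 genes with the full ER stress element, Hspa5 was higher in all 4 constructs and Pdia6 was called in none. The other 5 were called in 1 to 3 constructs, Hsp90b1 with a fall and the rest with rises. The share of all genes with such patterns was not computed, and a link between element and response was not tested.

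Of the 3 ERAD genes, Herpud1 was called at 8 h, in EV and RelA-dTAD, and 0 were called in RelA-dTA1 and RelA-WT, where 0 had an unadjusted p under 0.05 and DESeq2 called 0. The called shares of all genes were 48.7% in EV, 46.9% in RelA-dTAD, 34.6% in RelA-dTA1 and 27.4% in RelA-WT. Herpud1 (chr8:94386438-94395377, + strand) encodes HERP, a membrane scaffold of the ERAD ubiquitin ligase complex. It had 64.8 and 64.1 CPM in EV, 76.3 and 82.1 in RelA-dTAD, 98.2 and 97.7 CPM in RelA-dTA1, and 110.5 and 97.3 in RelA-WT, with 95.4 to 107 in the 8 libraries at 0 h. The EV and RelA-dTAD libraries lay below all those at 0 h, and the RelA-dTA1 and RelA-WT libraries overlapped them. Herpud1 fell by 0.61 ± 0.09 in EV (adjusted p = 7.57e-06) and by 0.35 ± 0.09 in RelA-dTAD (0.00324), with changes of -0.02 ± 0.09 in RelA-dTA1 and 0.08 ± 0.09 in RelA-WT. Edem1, which extracts glycoproteins from folding, changed by -0.07 to 0.07 over the 4 constructs. Sel1l, the adaptor of the ligase Hrd1, changed by -0.17 ± 0.07 in EV (0.0547, and 0.0215 with the block) and by -0.13 to 0.08 in the other 3.

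Of the 4 sensor genes, Xbp1 included, 3 were higher and 1 lower at 8 h in EV, RelA-dTAD and RelA-dTA1, and 2 and 1 in RelA-WT. The called shares of all genes were 48.7%, 46.9%, 34.6% and 27.4% in the same order. Atf6 (chr1:170704674-170867771, - strand) had the largest rise of the 35 in EV, with 218 and 191 CPM at 8 h, 179 and 161 in RelA-dTAD, 122 and 90.6 CPM in RelA-dTA1, and 109 and 82.7 in RelA-WT. At 0 h its 8 libraries had 62.1 to 73.1 CPM. No library at 8 h overlapped those, and all EV and RelA-dTAD libraries lay above all RelA-dTA1 and RelA-WT libraries. The fold was 3.17 in EV, 2.50 in RelA-dTAD, 1.52 in RelA-dTA1 and 1.43 in RelA-WT, or log2 changes of 1.66 ± 0.14 (adjusted p = 1.42e-09), 1.32 ± 0.14 (5.88e-08), 0.61 ± 0.14 (0.00176) and 0.52 ± 0.14 (0.00871). Without 1 library the change was 0.37 to 0.82 in RelA-dTA1, where the call was lost without 8 h replicate 1 (0.0768), and 0.31 to 0.73 in RelA-WT, where it was lost without 8 h replicate 1 or 0 h replicate 2 (up to 0.189).

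Ern1 (chr11:106394650-106487852, - strand) had 65.0 and 64.8 CPM in EV, 58.7 and 57.7 in RelA-dTAD, 45.9 and 39.1 CPM in RelA-dTA1, and 41.3 and 39.2 in RelA-WT at 8 h, with 25.6 to 29.6 at 0 h. All libraries at 8 h were above all at 0 h, and the same split of constructs held as for Atf6. Its changes were 1.27 ± 0.12 in EV (adjusted p = 3.57e-09), 1.07 ± 0.12 in RelA-dTAD (5.52e-08), 0.62 ± 0.12 in RelA-dTA1 (1.87e-04) and 0.63 ± 0.12 in RelA-WT (2.33e-04). Its substrate Xbp1 (chr11:5520659-5525893, + strand) had 119 and 115 CPM in EV, 118 and 121 in RelA-dTAD, 96.8 and 100.3 CPM in RelA-dTA1, and 87.8 and 97.0 in RelA-WT, with 77.3 to 86.7 at 0 h. It rose by 0.55 ± 0.08 in EV (2.13e-06), 0.56 ± 0.08 in RelA-dTAD (1.61e-06) and 0.32 ± 0.08 in RelA-dTA1 (0.00169), with 0.15 ± 0.08 in RelA-WT (0.154). Spliced and unspliced Xbp1 are counted together.

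Eif2ak3 (chr6:70844515-70905245, + strand), the PERK sensor, went the other way in every construct. It had 43.7 and 41.7 CPM in EV, 40.6 and 35.6 in RelA-dTAD, 49.9 and 50.9 CPM in RelA-dTA1, and 50.9 and 50.6 in RelA-WT at 8 h, with 59.0 to 67.1 at 0 h and no overlap between the times. It fell by 0.60 ± 0.09 in EV (adjusted p = 1.28e-05), 0.69 ± 0.09 in RelA-dTAD (1.90e-06), 0.36 ± 0.09 in RelA-dTA1 (0.00343) and 0.30 ± 0.09 in RelA-WT (0.0186). The RelA-WT call was lost without 0 h replicate 1 or either 8 h library (up to 0.218). Within set 1 and set 2 the changes of Eif2ak3 were -0.62 and -0.64 in EV, and -0.37 and -0.22 in RelA-WT.

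**Figure D2:**
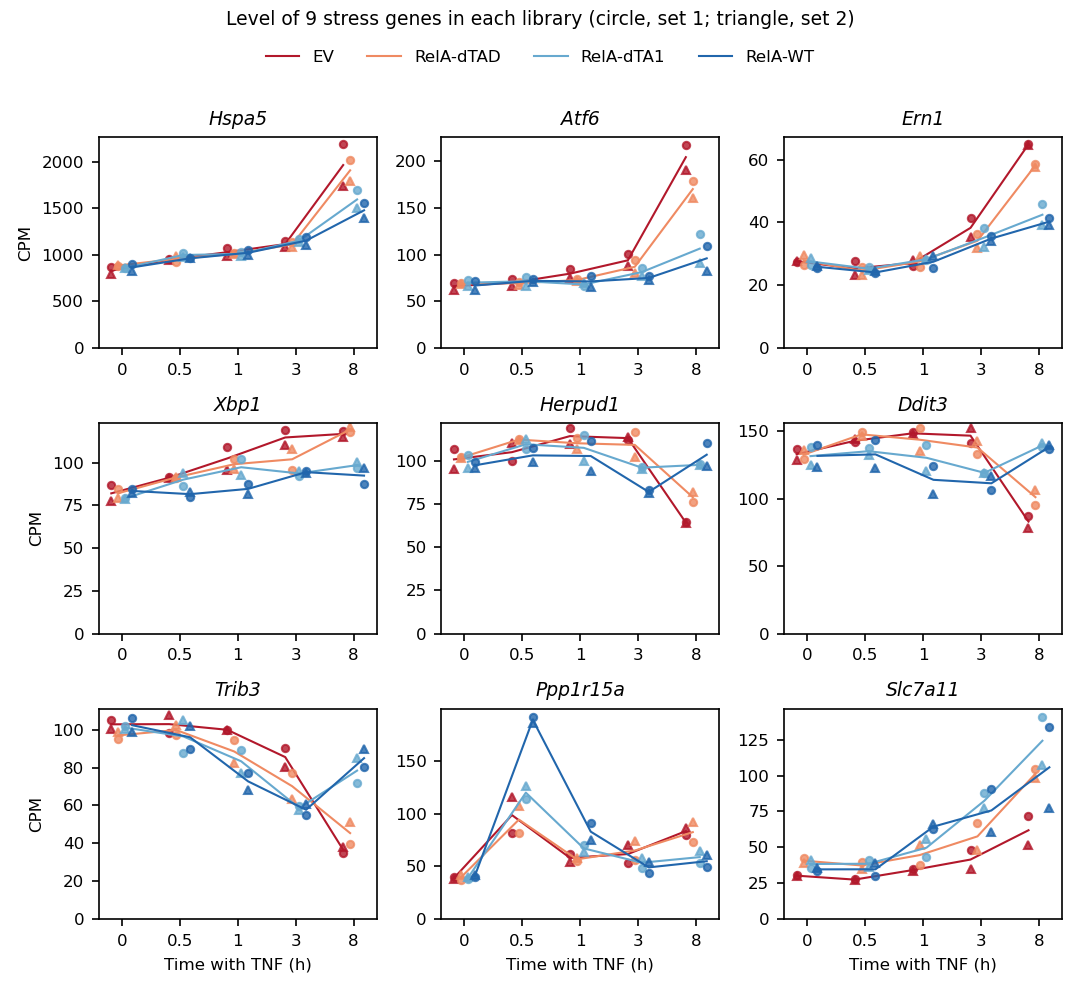
Level in CPM (vertical axis, from 0) of 9 stress genes against time with TNF (0, 0.5, 1, 3 and 8 h, evenly spaced) in EV, RelA-dTAD, RelA-dTA1 and RelA-WT. Each point is 1 library (circle, set 1; triangle, set 2), lines join the means of 2, and the EV and RelA-dTAD points part from the RelA-dTA1 and RelA-WT points at 8 h for Atf6, Ern1, Xbp1, Herpud1, Ddit3 and Trib3.

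Of the 6 regulators of the ATF4 branch, 1 was higher and 2 were lower at 8 h in EV, 2 and 2 in RelA-dTAD, and 2 and 1 in RelA-dTA1. In RelA-WT edgeR called 0 of them, 3 had an unadjusted p under 0.05 and DESeq2 called 0, while with the block 2 were higher and 1 lower. The called shares of all genes were 48.7% in EV, 46.9% in RelA-dTAD, 34.6% in RelA-dTA1 and 27.4% in RelA-WT (44.8% with the block). Atf4 itself (chr15:80255184-80257540, + strand) had 408 and 402 CPM in EV, 426 and 438 in RelA-dTAD, 447 and 396 CPM in RelA-dTA1, and 445 and 411 in RelA-WT, with 298 to 363 at 0 h. All libraries at 8 h lay above all at 0 h, and the constructs overlapped. The change was 0.40 ± 0.14 in RelA-dTAD (adjusted p = 0.0260) and 0.41 ± 0.14 in RelA-dTA1 (0.0277). The first was lost without 0 h replicate 2 or either 8 h library, and the second without 8 h replicate 1 or 0 h replicate 2. It was 0.28 ± 0.14 in EV (0.108, and 0.00266 with the block) and 0.30 ± 0.14 in RelA-WT (0.119, and 0.00289 with the block).

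Ddit3 (chr10:127290774-127296288, + strand), which encodes the death-promoting factor CHOP, had 87.5 and 78.7 CPM in EV, 95.6 and 107 in RelA-dTAD, 138 and 141 CPM in RelA-dTA1, and 137 and 140.1 in RelA-WT at 8 h. At 0 h it had 124 to 140.1 CPM. The EV and RelA-dTAD libraries lay below all of these. The RelA-dTA1 and RelA-WT libraries, at 137 to 141 CPM, lay in the upper part of the 0 h range or just above it. It fell by 0.65 ± 0.10 in EV (adjusted p = 6.11e-06) and 0.37 ± 0.10 in RelA-dTAD (0.00253), with 0.09 ± 0.09 in RelA-dTA1 and 0.07 ± 0.09 in RelA-WT.

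Trib3 (chr2:152337422-152344032, - strand) had 35.1 and 38.0 CPM in EV, 39.8 and 51.0 in RelA-dTAD, 71.9 and 84.8 CPM in RelA-dTA1, and 80.3 and 89.6 in RelA-WT at 8 h. EV and RelA-dTAD, the constructs with the higher Trib3 at 3 h, were thus the lower ones at 8 h. In RelA-WT both libraries at 8 h were above both at 3 h, and in EV both were below. The fold over 0 h was 0.366 in EV, 0.479 in RelA-dTAD, 0.782 in RelA-dTA1 and 0.831 in RelA-WT. The log2 changes were -1.45 ± 0.12 in EV (adjusted p = 1.05e-09), -1.06 ± 0.12 in RelA-dTAD (1.06e-07), -0.35 ± 0.12 in RelA-dTA1 (0.0205) and -0.27 ± 0.12 in RelA-WT (0.0936, and 0.0443 with the block). The RelA-dTA1 call of Trib3 was lost without either 0 h library or 8 h replicate 1 (up to 0.223).

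Ppp1r15a had 80.3 and 86.8 CPM in EV, 73.0 and 92.2 in RelA-dTAD, 53.1 and 64.6 CPM in RelA-dTA1, and 49.2 and 60.7 in RelA-WT at 8 h. All were above 0 h, and the EV and RelA-dTAD libraries lay above those of RelA-dTA1 and RelA-WT. It rose by 1.14 ± 0.18 in EV (adjusted p = 8.77e-06), 1.08 ± 0.17 in RelA-dTAD (1.72e-05) and 0.61 ± 0.17 in RelA-dTA1 (0.00863), with 0.43 ± 0.18 in RelA-WT (0.0731, and 0.0186 with the block). The RelA-dTA1 call was lost without 0 h replicate 1 or 8 h replicate 2 (up to 0.117). The other regulators were Chac1, which degrades glutathione, and the factor Atf5. Chac1 changed by 0.30 to 0.54 with an SE of 0.28 to 0.29, and Atf5 by -0.26 to -0.06 with an SE of 0.47 to 0.48, so changes of that size were within the spread between the sets. With the block, which removes the gap between sets, Atf5 was lower in EV (-0.26, 9.21e-04) and RelA-dTAD (-0.15, 0.0443).

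All 8 amino acid and folate genes were higher at 8 h in EV and RelA-dTAD, 6 were higher in RelA-dTA1 as well as in RelA-WT, and none was lower in any of the 4. Over all genes 25.6% were higher in EV, 24.4% in RelA-dTAD, 19.4% in RelA-dTA1 and 15.8% in RelA-WT. Slc7a11 (chr3:49892526-50443614, - strand), which encodes the cystine-glutamate exchanger xCT, had 71.9 and 51.9 CPM in EV, 105 and 98.1 in RelA-dTAD, 141 and 108 CPM in RelA-dTA1, and 134 and 77.4 in RelA-WT, with 30.1 to 42.5 at 0 h. All libraries at 8 h lay above all at 0 h, and the EV libraries were the lowest. The fold was 2.08 in EV, 2.53 in RelA-dTAD, 3.23 in RelA-dTA1 and 3.02 in RelA-WT, or log2 changes of 1.06 ± 0.25 (adjusted p = 0.00103), 1.34 ± 0.24 (7.00e-05), 1.69 ± 0.24 (6.70e-06) and 1.60 ± 0.24 (2.40e-05).

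Psat1, an enzyme of serine synthesis, had 510.0 and 401 CPM in EV, 477 and 419 in RelA-dTAD, 385 and 308 CPM in RelA-dTA1, and 353 and 319 in RelA-WT, with 231 to 279 at 0 h. It rose by 0.87 ± 0.14 in EV (adjusted p = 1.09e-05), 0.80 ± 0.14 in RelA-dTAD (3.48e-05), 0.57 ± 0.14 in RelA-dTA1 (0.00211) and 0.41 ± 0.14 in RelA-WT (0.0255). The RelA-WT call was lost without either 0 h library or 8 h replicate 1 (up to 0.162), and the RelA-dTA1 call without 8 h replicate 1 (0.0694). Mthfd2, a mitochondrial folate enzyme, had 198 and 167 CPM in EV, 186 and 182 in RelA-dTAD, 183 and 165 CPM in RelA-dTA1, and 167 and 152 in RelA-WT, with 96.3 to 116 at 0 h. For both genes every library at 8 h was above every one at 0 h. Mthfd2 rose by 0.81 ± 0.10 in EV (7.90e-07), 0.75 ± 0.10 in RelA-dTAD (2.63e-06), 0.75 ± 0.10 in RelA-dTA1 (4.25e-06) and 0.52 ± 0.10 in RelA-WT (5.63e-04).

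Shmt2, the mitochondrial serine hydroxymethyltransferase, rose by 0.72 in EV, 0.75 in RelA-dTAD, 0.69 in RelA-dTA1 and 0.51 in RelA-WT, each with an SE of 0.07. Asns, which makes asparagine, rose by 0.50 in EV, 0.60 in RelA-dTAD, 0.69 in RelA-dTA1 and 0.61 in RelA-WT, each with an SE of 0.19, and each call was lost without 8 h replicate 1 or 0 h replicate 2 of its construct (adjusted p up to 0.315 in EV). Slc3a2, the heavy chain shared by Slc7a11 and Slc7a5, rose by 0.34 to 0.47 with an SE of 0.07. Slc7a5, the leucine transporter LAT1, rose in EV (0.61 ± 0.16, adjusted p = 0.00320) and RelA-dTAD (0.63 ± 0.16, 0.00243), with 0.35 ± 0.16 in RelA-dTA1 (0.102, and 9.31e-04 with the block) and 0.24 ± 0.16 in RelA-WT (0.298, and 0.0239 with the block). Phgdh, the first enzyme of serine synthesis, rose in EV (0.26 ± 0.10, 0.0378) and RelA-dTAD (0.25 ± 0.10, 0.0432), with 0.12 in RelA-dTA1 and 0.03 in RelA-WT. The RelA-dTAD call of Phgdh was lost without any of its 4 libraries (up to 0.181), and the EV call without 0 h replicate 1 or 8 h replicate 2 (up to 0.293). That of Slc7a5 in RelA-dTAD was lost without 0 h replicate 1 (0.0645). Of the 5 members with the TGATGNAA element, Asns and Slc7a11 were thus higher in all 4 constructs. Trib3 was lower in 3, Herpud1 was lower in 2 and Chac1 was called in none. The share of all genes with such patterns was not computed, and a link between element and response was not tested.

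A wider set of pathway genes was counted in the same fit. Of 29 further ER genes tested, 5 were higher and 3 lower at 8 h in EV, 3 and 4 in RelA-dTAD, 3 higher and 2 lower in RelA-dTA1, and 2 and 3 in RelA-WT. Among all genes 48.7%, 46.9%, 34.6% and 27.4% were called in the same order. The higher shares were 25.6%, 24.4%, 19.4% and 15.8%, and the lower ones 23.1%, 22.5%, 15.3% and 11.6%. With the block the counts were 9 and 6 in EV, 8 and 6 in RelA-dTAD, 6 higher and 4 lower in RelA-dTA1, and 3 and 4 in RelA-WT, when 62.6%, 63.4%, 52.2% and 44.8% of all genes were called. Of 38 further ATF4 and amino acid response genes tested, 18 were higher and 10 lower in EV, 20 and 7 in RelA-dTAD, 21 higher and 2 lower in RelA-dTA1, and 19 and 2 in RelA-WT, beside the shares of all genes without the block. With the block the counts of these genes were 22 and 11, 23 and 10, 23 and 5, and 23 and 5, beside the block shares. Their median change was 0.32, 0.35, 0.39 and 0.34 in the same order. The largest changes among these genes were those of Stc2, a secreted stanniocalcin, Slc7a1, the arginine transporter CAT1, and Cth, which makes cysteine. Stc2 changed by 2.09 ± 0.31 in EV (adjusted p = 4.39e-06), 1.99 ± 0.30 in RelA-dTAD (8.60e-06), 1.13 ± 0.30 in RelA-dTA1 (0.00490) and 0.81 ± 0.31 in RelA-WT (0.0533, and 2.04e-04 with the block). Slc7a1 rose by 1.69 ± 0.16 in EV, 1.62 ± 0.16 in RelA-dTAD, 1.05 ± 0.16 in RelA-dTA1 and 0.91 ± 0.16 in RelA-WT. Cth rose by 1.42 ± 0.24 in EV, 1.38 ± 0.23 in RelA-dTAD, 1.11 ± 0.23 in RelA-dTA1 and 1.07 ± 0.24 in RelA-WT.

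The constructs were compared by the difference between the TNF response of EV or a mutant and that of RelA-WT. Rela levels also varied between constructs, so this difference does not by itself show on which RelA domain a gene depends. At 8 h this difference was called for 8 of the 35 in EV, 5 of them higher and 3 lower, against 17.6% of all genes (9.67% higher, 7.90% lower). It was called for 5 in RelA-dTAD, 2 higher and 3 lower, against 12.2% (6.45% higher, 5.80% lower). Both comparisons use the same RelA-WT libraries. In RelA-dTA1 edgeR called 0 of the 35 and 0.00% of all genes. There 0 members had an unadjusted p under 0.05 and DESeq2 called 0, with differences from -0.33 to 0.24, and a p that misses the threshold does not show that the responses were alike. With the block the calls were 8 higher and 5 lower in EV (33.5% of all genes), 8 and 7 in RelA-dTAD (27.8%) and 0 in RelA-dTA1 (0.0585%).

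Atf6 rose more without RelA or its transactivation domains. Its 8 h response differed from that of RelA-WT by 1.15 ± 0.20 in EV (adjusted p = 2.31e-04) and 0.80 ± 0.20 in RelA-dTAD (0.00889), and within set 1 and set 2 by 1.03 and 1.2 in EV and by 0.75 and 0.83 in RelA-dTAD. Ern1 differed by 0.64 ± 0.16 in EV (0.00812), with 0.44 ± 0.16 in RelA-dTAD (0.0853, and 0.0295 with the block). Xbp1 differed by 0.40 ± 0.11 in EV (0.0107) and 0.41 ± 0.11 in RelA-dTAD (0.0116). Hspa5 differed by 0.51 ± 0.14 in EV (0.0117), with 0.35 ± 0.14 in RelA-dTAD (0.102, and 0.00552 with the block). The differences of Atf6 and Ern1 in EV passed whichever of the 8 libraries was left out, and that of Atf6 in RelA-dTAD did so except without RelA-WT 8 h replicate 2 (0.0819). That of Hspa5 was lost without EV 8 h replicate 1, EV 0 h replicate 2, RelA-WT 0 h replicate 1 or RelA-WT 8 h replicate 2, and over the 8 fits it lay between 0.31 and 0.67 (adjusted p up to 0.143). That of Xbp1 in EV (0.31 to 0.46) was lost without EV 8 h replicate 1, EV 0 h replicate 2, or replicate 1 of RelA-WT at 0 h or 8 h. That in RelA-dTAD (0.33 to 0.47) was lost without RelA-dTAD 0 h or 8 h replicate 2, or replicate 1 of RelA-WT at 0 h or 8 h. The shares of all genes called without 1 library are not given here. The count of called members was 5 in EV without EV 8 h replicate 1, EV 0 h replicate 2 or RelA-WT 0 h replicate 1, and 2 in RelA-dTAD without RelA-dTAD 0 h replicate 2 or RelA-WT 8 h replicate 1.

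Trib3, Ddit3 and Herpud1 were lower without RelA or its transactivation domains. The Trib3 response differed from that of RelA-WT by -1.18 ± 0.17 in EV (adjusted p = 2.07e-05) and -0.80 ± 0.17 in RelA-dTAD (0.00201), with -1.18 and -1.26 within the sets in EV and -0.85 and -0.81 in RelA-dTAD. Ddit3 differed by -0.72 ± 0.14 in EV (4.92e-04) and -0.44 ± 0.13 in RelA-dTAD (0.0312). Herpud1 differed by -0.70 ± 0.13 in EV (4.55e-04) and -0.43 ± 0.13 in RelA-dTAD (0.0293). The EV differences of all 3, and that of Trib3 in RelA-dTAD, passed whichever library was left out. Those of Ddit3 and Herpud1 in RelA-dTAD passed in 2 of 8 such fits, with values from -0.55 to -0.35 for Ddit3 (kept without RelA-WT 0 h replicate 1 or RelA-dTAD 8 h replicate 2) and from -0.54 to -0.35 for Herpud1 (kept without RelA-WT 0 h replicate 1 or RelA-WT 8 h replicate 2).

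At 3 h the same 3 genes stood in the opposite order, with Trib3 differing by 0.56 in EV (adjusted p = 0.0670, and 0.0170 with the block), Herpud1 by 0.42 (0.0817, and 0.00827 with the block) and Ddit3 by 0.38 (0.154, and 0.0297 with the block). No member was called for a difference at 0.5, 1 or 3 h in EV (0.0805%, 0.600% and 3.68% of all genes), RelA-dTAD (0.0805%, 0.600% and 3.10%) or RelA-dTA1 (0.0146%, 0.00% and 0.00%) by edgeR, nor by DESeq2. The members with an unadjusted p under 0.05 numbered 1, 5 and 6 in EV, 1, 4 and 3 in RelA-dTAD, and 1, 1 and 0 in RelA-dTA1. With the block, 4 were called in EV, the fourth being Slc7a5 at 3 h (0.49, adjusted p = 0.00676), and 3 in RelA-dTAD, namely Ppp1r15a at 0.5 h and Herpud1 (0.33, 0.0491) and Slc7a5 (0.41, 0.0287) at 3 h. The shares of all genes called at 3 h were then 9.07% in EV and 8.34% in RelA-dTAD, and that at 0.5 h in RelA-dTAD was 0.205%.

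Ppp1r15a, the only member called at 0.5 h, differed at 8 h by 0.71 ± 0.25 in EV (adjusted p = 0.0482). That call was kept in 1 of 8 fits that left out a library (that without RelA-WT 8 h replicate 2). In RelA-dTAD the gene differed by 0.65 ± 0.25 (0.0885, and 0.0181 with the block). Of the chaperones other than Hspa5, the amino acid genes and Atf4, none was called. Psat1 differed by 0.46 ± 0.19 in EV (0.106, and 8.71e-04 with the block) and 0.39 ± 0.19 in RelA-dTAD (0.216, and 0.00519 with the block). Slc7a11 differed by -0.54 ± 0.34 in EV (0.322), and Atf4 by -0.02 ± 0.20 in EV, 0.09 ± 0.20 in RelA-dTAD and 0.11 ± 0.20 in RelA-dTA1. The block added Pdia4 (-0.38 in EV and -0.36 in RelA-dTAD) and Slc7a5 (0.37 and 0.40) in both, Hyou1 (0.34) and Sel1l (-0.25) in EV, and Calr (-0.28), Pdia3 (-0.23), Eif2ak3 (-0.42) and Shmt2 (0.25) in RelA-dTAD. Among the further genes, Slc7a1 differed by 0.78 ± 0.22 in EV (0.0172) and 0.71 ± 0.22 in RelA-dTAD (0.0392), and Stc2 by 1.28 ± 0.43 in EV (0.0394) and 1.19 ± 0.43 in RelA-dTAD (0.0731, and 9.50e-05 with the block). The Slc7a1 calls were each kept in 4 of 8 fits without a library, and lost without either RelA-WT replicate 2 or either mutant replicate 1 of 0 h or 8 h. The Stc2 call was kept only without RelA-WT 0 h replicate 1.

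**Figure D3:**
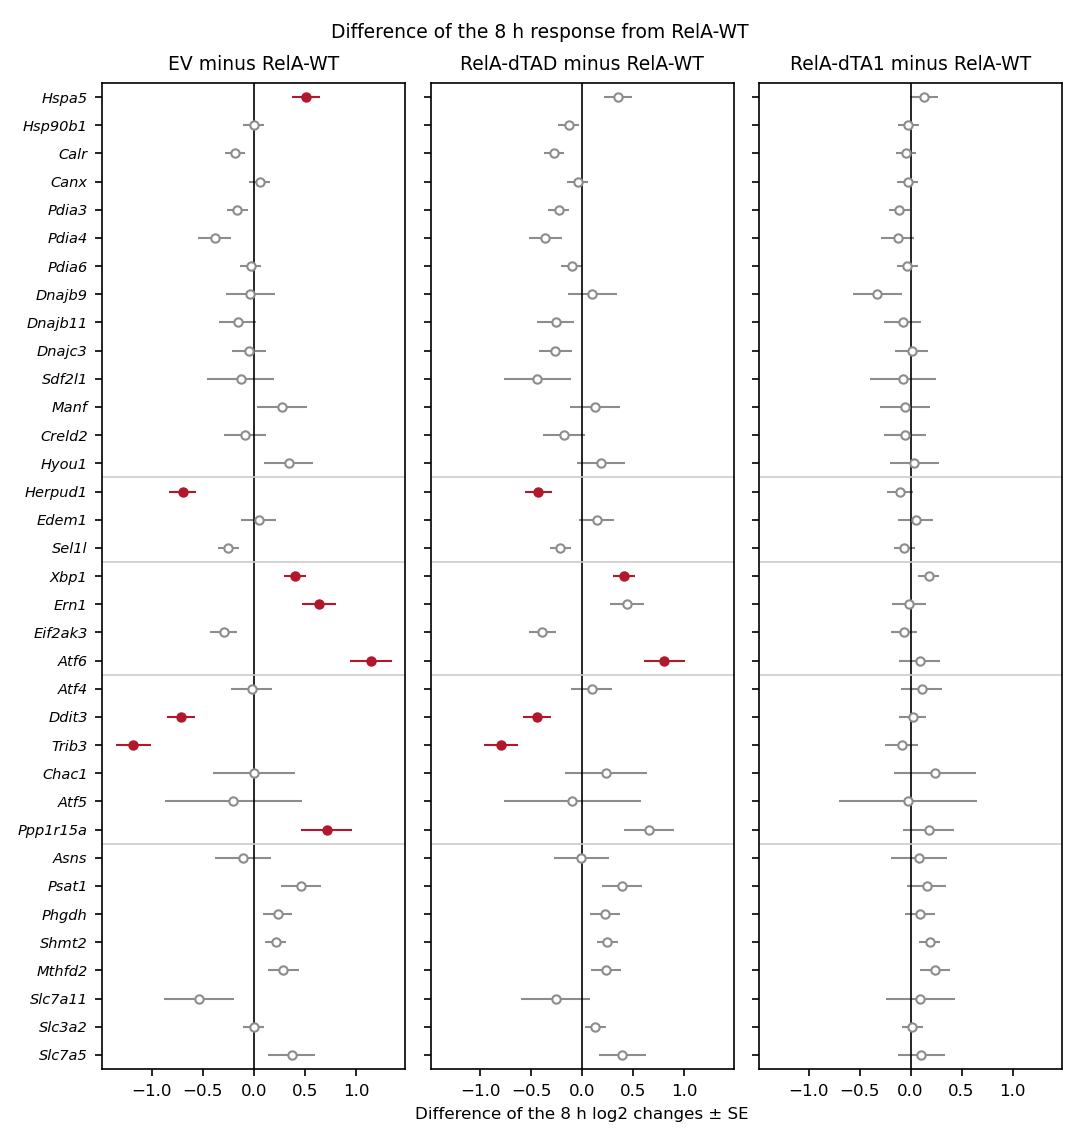
Difference of the 8 h log2 change from that of RelA-WT (horizontal axis, ± SE) for the 35 genes in EV, RelA-dTAD and RelA-dTA1, each from 2 libraries a group. Filled red points have an adjusted p under 0.05 in edgeR: 8 in EV, 5 in RelA-dTAD and 0 in RelA-dTA1. Atf6 is the farthest to the right and Trib3 the farthest to the left in EV and in RelA-dTAD.

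The 7 constructs with 1 library at each time have no replicate check, and their values are log2 CPM differences between 8 h and 0 h of the same construct without a test. The RelA-DB and RelA-dCterm libraries are of set 1 and those of the TA2 mutants of set 2. Without TMM the 8 h changes of all members in a construct would shift by -0.0943 to -0.239. Atf6 changed by 1.53 in RelA-DB, 1.46 in RelA-dCterm, 0.91 in RelA-TA2_CI-dTA1 and 1.01 in RelA-TA2_CI_S467A-dTA1. Its change was 0.31 in RelA-TA2_CI, 0.55 in RelA-TA2_CI_S467A and 0.37 in RelA-TA2_S467A. Within set 1, EV had 1.63, RelA-dTAD 1.35, RelA-dTA1 0.74 and RelA-WT 0.61. Within set 2 they had 1.61, 1.24, 0.44 and 0.41. RelA-DB and RelA-dCterm thus lay between EV and RelA-dTAD of their set, the TA2 mutants without TA1 lay between RelA-dTAD and RelA-dTA1, and those with TA1 lay near RelA-WT and RelA-dTA1 of set 2.

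Trib3 changed by -1.69 in RelA-DB, -1.25 in RelA-dCterm, -0.95 in RelA-TA2_CI-dTA1 and -0.79 in RelA-TA2_CI_S467A-dTA1. It changed by -0.19 in RelA-TA2_CI, -0.22 in RelA-TA2_CI_S467A and -0.13 in RelA-TA2_S467A, where RelA-WT of the same set had -0.14 and RelA-dTA1 -0.24. Ddit3 changed by -0.71 in RelA-DB, -0.60 in RelA-dCterm, -0.24 in RelA-TA2_CI-dTA1 and -0.10 in RelA-TA2_CI_S467A-dTA1, and by 0.14 to 0.19 in the 3 TA2 mutants with TA1. Herpud1 changed by -0.61, -0.42, -0.17 and -0.13 in the first 4 constructs and by 0.07 to 0.13 in the last 3. For these 3 genes RelA-DB, RelA-dCterm and the TA2 mutants that also lack TA1 had the lower values, and the 3 TA2 mutants with TA1 had the higher ones. Without TMM, 37 of the 245 lone-library values at 8 h changed sign, among them those of Herpud1 in RelA-TA2_CI (-0.07) and RelA-TA2_CI_S467A (-0.04) and that of Ddit3 in RelA-TA2_CI (-0.002).

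Hspa5 changed by 1.27 in RelA-DB, 1.27 in RelA-dCterm, 0.98 in RelA-TA2_CI-dTA1, 0.99 in RelA-TA2_CI_S467A-dTA1, 0.64 in RelA-TA2_CI, 0.85 in RelA-TA2_CI_S467A and 0.70 in RelA-TA2_S467A. Its level at 8 h ran from 1362 CPM in RelA-TA2_CI to 2169 CPM in RelA-DB. Ern1 changed by 1.41 in RelA-DB, 1.42 in RelA-dCterm, 0.79 in RelA-TA2_CI-dTA1 and 0.80 in RelA-TA2_CI_S467A-dTA1, and by 0.33 to 0.67 in the other 3. Slc7a11 had no such order, at 1.06 in RelA-DB, 1.35 in RelA-dCterm and 1.03 to 1.58 in the 5 TA2 mutants. At 0.5 h Ppp1r15a changed by 1.37 in RelA-DB, 1.37 in RelA-dCterm, 1.64 in RelA-TA2_CI-dTA1, 1.43 in RelA-TA2_CI_S467A-dTA1, 1.52 in RelA-TA2_CI, 1.67 in RelA-TA2_CI_S467A and 1.98 in RelA-TA2_S467A, all below the 2.26 and 2.15 of the RelA-WT sets.

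**Figure D4:**
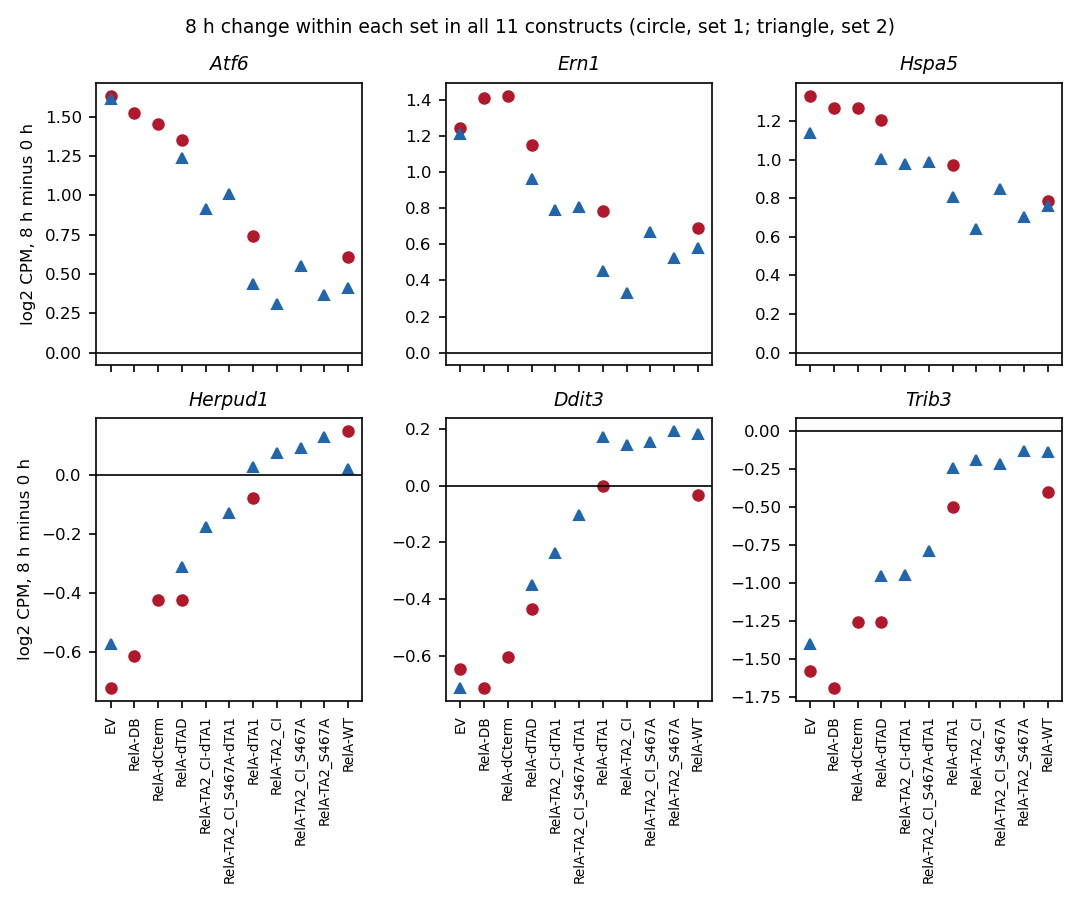
Change in log2 CPM between 8 h and 0 h within each set (vertical axis, scaled for each gene) for 6 genes in all 11 constructs, circles for set 1 and triangles for set 2, with no test. Constructs run on the horizontal axis from EV on the left to RelA-WT on the right, and in each plot the 4 on the left and the 4 on the right stand apart, Hspa5 least.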

How the data were processed

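The authors deposited whole-number read counts per gene for 75 libraries in tables of 2 sets. The submitters' processing notes name cutadapt 1.9.1, STAR, featureCounts 1.5.0, DESeq2 and the build mm10, with no roles given. Libraries were made with a stranded kit, per the labels' protocols, but whether counting used strand is not given in the sources used here, so overlapping and antisense genes are uncertain.

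From the deposited counts, CPM, RPKM (with the gene lengths given in the count tables) and log2 CPM (prior count 2) were computed with TMM scaling in edgeR 4.0.16 under R 4.3.3. Genes passing filterByExpr in the 40 libraries of EV, RelA-dTAD, RelA-dTA1 and RelA-WT (13665 genes) were fitted with 1 mean per construct and time (20 residual degrees of freedom, common dispersion 0.0224) and tested with edgeR's robust quasi-likelihood test, Benjamini-Hochberg adjusted over all genes tested, with a threshold of 0.05. A response difference is the interaction of construct and time. The procedure was run on simulated counts with the common dispersion for every gene and changes in EV at 8 h alone. They held no difference in expression between the sets. That run therefore does not cover the pairing of libraries described below. Alternatives were RLE size factors, DESeq2 1.42.0, no filter, a replicate block, a fit of all 75 libraries, and leaving out each library. For lone libraries they were library totals without TMM and a prior count of 0.5.

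Replicate numbers are the sets, per the labels. Over 190 pairs of groups, libraries with 1 number deviated from the means of their groups together, with correlations of 0.357 to 0.668 (median 0.526), so the numbers pair the samples. The main fit did not use this pairing, and the alternative with the replicate block did.

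The members, the further lists and the classes were chosen with earlier results of these data known. Per-library values are given for the 2 or 3 members of each class with the largest change among those called (Herpud1 alone in the ERAD class, where no other was called), and for Hspa5, Xbp1, Atf4 and Ddit3. Further pathway genes named are the 3 with the largest 8 h change. Of the further ATF4 list 40 of 41 symbols matched (not Mars1) and Cbs and Gdf15 did not pass the filter, nor did Derl3 of the 30 further ER genes. Gene coordinates are those given in the count tables (mm10), and promoter sequences are from RefSeq (GRCm38.p6).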

Additional observations from a re-analysis of the deposited data

Results flagged for a closer look

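The 8 h TNF response of EV or RelA-dTAD differed from that of RelA-WT for 13 pairs of gene and construct. The test was that of the difference itself, in edgeR's fit over 13665 genes. That fit had no replicate block and so did not use the pairing of the libraries. The pairs were 8 of the 35 members in EV, against 17.6% of all genes, and 5 in RelA-dTAD, against 12.2%. Not all of these calls held when 1 library was left out, as given with the results. Higher in EV than in RelA-WT were Atf6 by 1.15 (adjusted p = 2.31e-04), Ppp1r15a by 0.71 (0.0482), Ern1 by 0.64 (0.00812), Hspa5 by 0.51 (0.0117) and Xbp1 by 0.40 (0.0107). Lower in EV were Trib3 by -1.18 (2.07e-05), Ddit3 by -0.72 (4.92e-04) and Herpud1 by -0.70 (4.55e-04). Higher in RelA-dTAD than in RelA-WT were Atf6 by 0.80 (0.00889) and Xbp1 by 0.41 (0.0116), and lower were Trib3 by -0.80 (0.00201), Ddit3 by -0.44 (0.0312) and Herpud1 by -0.43 (0.0293). All 13 had the same direction within set 1 and within set 2, which hold the libraries that gave the calls, so this is not a separate check. The constructs also differed in Rela, which at 8 h stood at 3883 and 6657 CPM in RelA-dTAD and at 1483 and 1773 CPM in RelA-WT. The part of that level in the differences was not tested.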

How the results depend on the processing

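With the replicate block, the calls among the 35 became 5 in RelA-dTAD and 9 in RelA-WT at 3 h, 11 over the constructs at 1 h, 13 for the 8 h difference of EV from RelA-WT, 15 for that of RelA-dTAD, and 4 and 3 for their differences at 0.5, 1 and 3 h. It ended none of the 118 calls of change (members and named further genes) or of the 16 called differences. Beside the calls it added, given with the results, the block changed no other call of a member, except that it also called Dnajb9 and Mthfd2 in EV at 3 h. Without the filter on low counts, the difference of RelA-dTAD at 8 h was called for 3 members, with 1616 calls over all genes. Those of EV and RelA-dTAD at earlier times were called for 1 member each, Ppp1r15a at 0.5 h. At that time the setting called 37 genes of all in EV and 57 in RelA-dTAD. With RLE size factors 118 of 118 and 16 of 16 were kept, with DESeq2 117 and 16, with all 75 libraries in the fit 111 and 14, and with no filter 96 and 11. Leaving out 1 library at a time gave 1 to 3 calls in EV, 0 to 3 in RelA-dTAD, 3 to 4 in RelA-dTA1 and 2 to 5 in RelA-WT at 3 h. At 8 h it gave 19 to 23, 19 to 20, 11 to 16 and 8 to 12 in the same order, 4 to 6 over the constructs at 1 h and 4 to 4 at 0.5 h. It gave 5 to 8 calls for the 8 h difference of EV, 2 to 5 for that of RelA-dTAD and 0 to 0 for that of RelA-dTA1. For EV at earlier times it gave 0 to 1, the 1 being Herpud1 at 3 h without EV 0 h replicate 1. Fewer libraries leave fewer degrees of freedom, and the lone library left in a group is assumed to vary like the others. The shares of all genes called in these fits are not given here. Calls lost by members therefore cannot be set against calls lost over all genes. The change of Ddit3 in RelA-WT at 8 h, which was not called, ranged from -0.0174 to 0.173 when 1 library was left out, the lowest (adjusted p of 0.94) without RelA-WT 0 h replicate 2. For lone libraries a prior count of 0.5 moved 0 of 245 values beyond counting error, and library totals without TMM moved 194, while 37 of the 245 changed sign. Set 1 libraries hold fewer reads, so low genes are less precise there.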
